A study of Mus musculus with 6 samples.

Results

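Colony-stimulating factors are secreted proteins that drive the survival, growth and maturation of myeloid cells, and fibroblasts are among their known sources in inflamed tissue. CSF1 (M-CSF) and IL-34 act on macrophages through the same tyrosine kinase receptor, CSF1R. CSF2 (GM-CSF) and CSF3 (G-CSF) act on granulocytes and their progenitors through cytokine receptors that have no kinase of their own and signal through JAK kinases and STAT factors. Here 7 genes of this system were followed among the 12235 genes of the table: the ligand genes Csf1, Il34, Csf2 and Csf3, the receptor gene Csf1r, and Csf2rb and Csf2rb2, which encode the common beta chain of the GM-CSF, IL-3 and IL-5 receptors and a second mouse beta chain that serves IL-3. They were chosen by name, with the difference between the 2 groups of libraries already in view, so that their values are given as a description with no test.

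The libraries came from podoplanin-positive cancer-associated fibroblasts (pCAFs) of tumours of the mouse breast cancer line 4T1, which arose from 100000 cells injected into the mammary fat pad of female BALB/c mice aged 8 weeks. The labels call the injected line 4T1-GFP in one field and 4T1-luc in another. By cell sorting, cells without Ter119, CD45 and EpCAM and with PDPN were divided into Ly6C+ pCAFs (3 libraries) and Ly6C− pCAFs (3 libraries). Both groups carry the same tumour, sex and age, no tumour-free fibroblasts are part of the comparison, and whether the 3 repetitions are separate mice or pools is not given in the sources used here, so the spread between them may be in part technical.

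The 3′ end mRNA libraries held 2150531 to 2818269 reads on the listed genes in Ly6C+ and 1176909 to 1721480 reads in Ly6C− pCAFs. Ly6c1, a gene behind the sorting marker, had 3849, 3142 and 2316 normalised counts in the Ly6C+ libraries, with 88.6, 77.4 and 65.6 for Ly6C−, as labelled. Fibroblast markers summed to 67400 to 76350 normalised counts in Ly6C+ and 45820 to 60420 in Ly6C− libraries, with all 9 listed markers detected, and Ptprc (CD45) and Epcam stayed at or below 4.88 and 2.95. Of the 9 fibroblast markers, 5 rose in Ly6C+ in limma (Col3a1, Pdgfra, Dcn, Lum and Pdpn) and none fell. Pdpn, a sorting marker, had means of 209 in Ly6C+ and 95.4 in Ly6C− libraries. One library stood apart, since granulocyte markers summed to 969.8 in Ly6C+ replicate 1, above the 57.9 and 44.0 of the other Ly6C+ libraries and the 11.1 to 32.5 of Ly6C− libraries. Mural cell markers, all 8 measured, summed to 190.3 to 245.7 in Ly6C+ and 604.4 to 1109 in Ly6C− libraries, and endothelial markers, 5 of 9 measured, summed to 21.1 to 41.5 in Ly6C+ and 22.3 to 127.9 in Ly6C− libraries. Members of the mural and endothelial lists did not all go with the sums. Of 7 mural markers tested with limma as below, 5 fell in Ly6C+ and Kcnj8 rose (Ly6C+ mean 117.8, Ly6C− mean 30.05). Among those that fell, Myh11 (means of 0.203 and 25.3) and Mcam (1.16 and 12.3) reached the minimum mean of 5 only through their Ly6C− values. Abcc9 had means of 30.1 and 11.6 and did not pass. Of 3 endothelial markers tested, Kdr (means of 6.925 and 64.5) and Egfl7 (2.70 and 15.3) fell and Tek (18.5 and 1.16) rose. Egfl7 reached that minimum only through its Ly6C− values and Tek only through its Ly6C+ values. The part of granulocytes, mural and endothelial cells in the values below was not tested, nor was that of the difference in fibroblast markers.

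Sequences that bear on the RNA of these ligands are shown first. The messages of Csf2 and Csf3 are textbook cases of short-lived transcripts, which carry copies of the pentamer ATTTA in their 3′ untranslated region, where proteins of the TTP (Zfp36) family bind and bring the message to decay. In GENCODE M21 transcripts the 317 bases after the stop codon of Csf2 held 9 pentamers (28.4 per 1000 bases) and the 669 bases of Csf3 held 6 (8.97 per 1000). The longest such region of Csf1 (2111 bases) held 4, those of Il34 (439 or 605 bases) held 1, and those of Csf2rb and Csf2rb2 held 0. The 30 bases with the most pentamers, in capitals, are given for the RNA strand as DNA letters, from chr11:54247329-54247358 (minus strand) for Csf2 and chr11:98702984-98703013 (plus strand) for Csf3, build mm10. The 5 overlapping copies in Csf2 run into each other, and the 3 in Csf3 are spaced.
Csf2: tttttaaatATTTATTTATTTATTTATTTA
Csf3: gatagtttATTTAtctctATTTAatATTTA

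For Csf1, the ligand gene with the most reads, the RefSeq promoter (GRCm38.p6, chr3:107760420-107760719, minus strand, 250 bases before to 50 after the start) is printed because it holds a match to GGANNNTCC, a form of the kappaB site of NF-kB factors, in capitals 154 bases before the start. The form was chosen after the sequence was seen. It occurs on either strand in 8.62% of 32851 promoter windows of this length. Other motifs searched on both strands were the core of RUNX sites, spelled TGTGGT, which 16.8% of windows hold. The AP-1 site, spelled TGANTCA, is held by 7.81% of windows. The TATA box, spelled TATAAA, is held by 13.6%. None of these was in this window or in those of Csf2 and Csf2rb2, and the only GGANNNTCC match among the 3 windows was that of Csf1. The RefSeq start used for Csf2 lies 232 bases upstream of the GENCODE start, so its window is not the one next to the GENCODE start. A match is a description of letters only.
Csf1: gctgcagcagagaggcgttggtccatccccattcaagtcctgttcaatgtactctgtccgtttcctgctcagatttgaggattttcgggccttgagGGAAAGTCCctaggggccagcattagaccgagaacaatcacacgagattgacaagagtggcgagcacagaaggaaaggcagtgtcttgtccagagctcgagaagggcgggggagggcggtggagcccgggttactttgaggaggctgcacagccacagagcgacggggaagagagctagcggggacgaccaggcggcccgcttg

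Values below are normalised counts, the authors' counts divided by 1 size factor per library, as mean ± SD over 3 libraries. Log2 fold changes (Ly6C+ minus Ly6C−) with their standard error (SE) are from limma on log2(value + 1), which understates changes at low values. With 3′ end reads, levels of different genes are not set against each other. Of the 7 genes, 5 had all 3 Ly6C+ values above all 3 Ly6C− values and none the reverse, where 33.1% of 9646 tested genes had groups without overlap and 17.1% had them in that direction. As the genes were chosen with this contrast in view, nothing is read from that share.

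**Figure D1:**
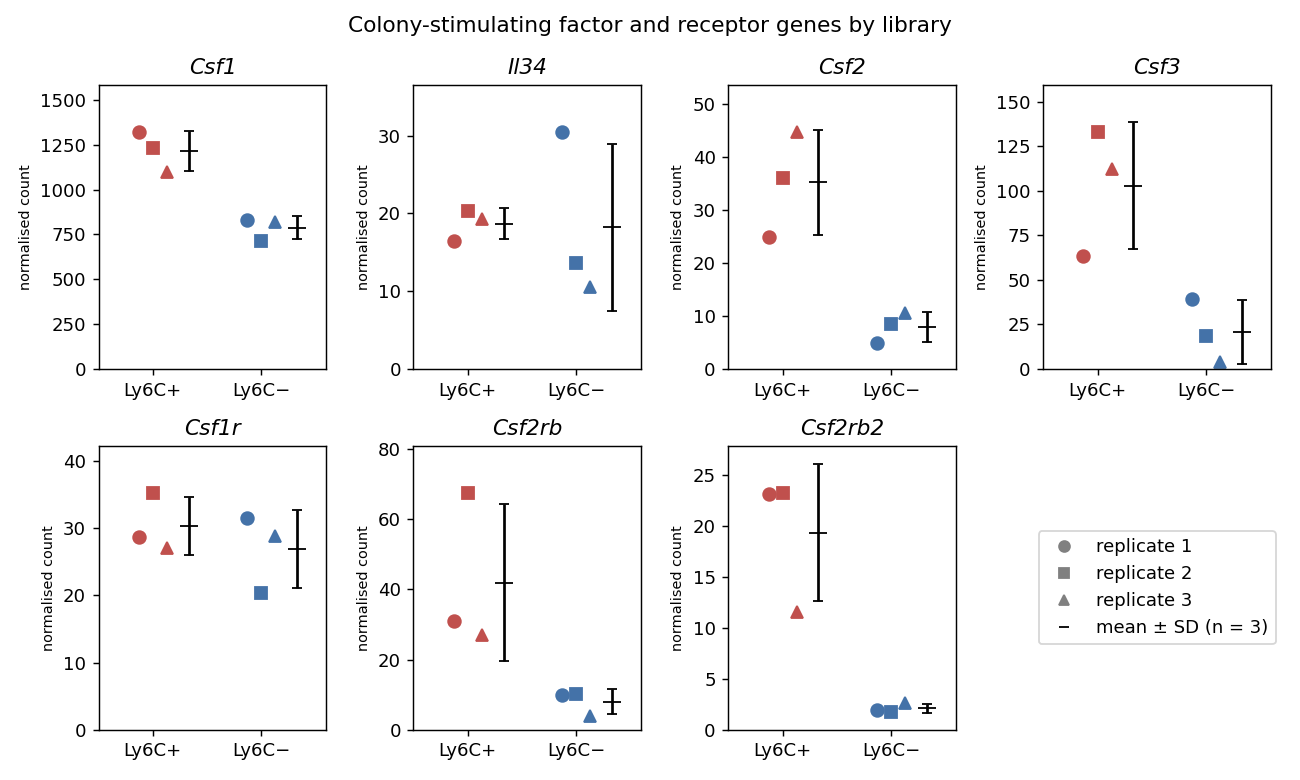
Normalised counts (vertical axes, each starting at 0) of the 7 genes in the 3 Ly6C+ (left) and 3 Ly6C− (right) libraries, with symbols for the replicate number and bars for mean ± SD (n = 3). Csf1, Csf2, Csf3, Csf2rb and Csf2rb2 have no overlap between groups, while Il34 and Csf1r overlap.

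Csf1, the ligand gene that supports macrophage survival, had 1322, 1230 and 1100 normalised counts in Ly6C+ libraries, against 828.7, 713.7 and 820.7 in Ly6C− libraries. All 3 Ly6C+ values lay above the Ly6C− values, the closest pair being 1.33-fold apart. The means were 1217 ± 112 in Ly6C+ and 787.7 ± 64.2 in Ly6C− pCAFs, a ratio of 1.55 (log2 fold change 0.63, SE 0.16) on 5228 and 2307 reads. This was the smallest difference of the 5 genes without overlap and the one with the least spread, with coefficients of variation of 9.20% and 8.15%. Scaling each library to its total lowered the median log2 fold change of all tested genes by 0.19, and Csf1 then stood at 0.43. Csf1 lies on chromosome 3 (107741048 to 107760469, minus strand, mm10) and overlaps no other annotated gene.

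Il34, the second CSF1R ligand gene, had 16.5, 20.3 and 19.3 in Ly6C+ libraries, against 30.5, 13.6 and 10.5 in Ly6C− libraries. Its values overlapped, and the widest spread was in Ly6C− pCAFs, where replicate 1 held both the highest value of all 6 libraries and most of the 55 reads of the group (31). The means were 18.7 ± 1.99 and 18.2 ± 10.8 (log2 fold change 0.17, SE 0.38). The ratio of means was 1.03, but 1.55 without Ly6C− replicate 1 and 0.847 without Ly6C− replicate 3, so these libraries set no direction. The 2 antisense genes that overlap Il34 on chromosome 8, Gm15894 and Gm15895, were not analysed here, and as the strand setting of the counting is not given their reads cannot be told from those of Il34.

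Csf1r, the receptor for both ligands, had 28.7, 35.3 and 27.0 in Ly6C+ libraries, against 31.5, 20.4 and 28.8 in Ly6C− libraries. The groups overlapped throughout, with means of 30.4 ± 4.39 and 26.9 ± 5.78 and a log2 fold change of 0.18 (SE 0.26) that became −0.01 with libraries scaled to their totals. The reads numbered 129 and 78. Csf1r is a defining gene of macrophages, so the macrophage markers are given beside it. They summed to 219.4 to 412.3 in Ly6C+ and 127.2 to 536.4 in Ly6C− libraries, with 13 of 17 markers measured and none of those at 0 in a whole group. Their highest sum was in Ly6C− replicate 1 (536.4), where C1qa stood at 32.5 and Cd74 at 314.9, while Csf1r was highest in Ly6C+ replicate 2. Lyz2 was uneven, with 264.1, 98.5 and 27.0 for Ly6C+ against 25.6, 1.70 and 3.93 for Ly6C−, and Csf1r did not follow that order. Of 8 macrophage markers tested, Lyz2 alone passed, higher in Ly6C+ without overlap (limma adjusted p = 0.01235). Its call ended without Ly6C+ replicate 1 or Ly6C− replicate 2 (limma adjusted p = 0.0746 and 0.0570). The part of macrophage RNA in the Csf1r values was not tested. In such bulk libraries fewer cells of a type and less RNA per cell cannot be told apart. On chromosome 18 Csf1r overlaps Hmgxb3, on the opposite strand, which had 42.1 to 49.5 in Ly6C+ and 57.7 to 72.3 in Ly6C− libraries.

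Csf2, the GM-CSF gene, had 25.01, 36.1 and 44.8 in Ly6C+ libraries, against 4.92, 8.51 and 10.5 in Ly6C− libraries. The lowest Ly6C+ value was 2.38-fold the highest Ly6C− value. The means were 35.3 ± 9.93 and 7.97 ± 2.82, a ratio of 4.43 (log2 fold change 2.03, SE 0.35), and leaving out any 1 library kept the ratio between 3.72 and 5.26. The values rest on few reads: the Ly6C+ libraries held 41, 48 and 58, the Ly6C− libraries 5, 10 and 8, whose sum of 23 has an exact 95% Poisson interval of 14.6 to 34.5 that covers counting error only. Csf2 lies on chromosome 11 (54247271 to 54249667, minus strand), and the antisense gene Gm12223 that overlaps it was not analysed here.

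Csf3, the G-CSF gene, which drives granulocyte output from the marrow, had 63.4, 133.0 and 112.0 in Ly6C+ libraries, against 39.4, 18.7 and 3.93 in Ly6C− libraries. No values overlapped, but Csf3 was the most uneven of the 7 genes in Ly6C− pCAFs, where the coefficient of variation was 86.1% on 40, 22 and 3 reads. The means were 102.8 ± 35.7 and 20.7 ± 17.8, a ratio of 4.97 (log2 fold change 2.65, SE 0.61). Without Ly6C− replicate 1 the ratio was 9.08, and without Ly6C− replicate 3 it was 3.54. 4T1 cells are known to secrete G-CSF, so the epithelial markers, which cover the tumour cells, are given beside it. They summed to 14.0, 45.1 and 51.0 in Ly6C+ libraries, against 375.0, 222.0 and 121.9 in Ly6C− libraries, the group with less Csf3. Of the 12 markers, all measured, 5 were tested and 2 of these fell. Krt14 had 0.610, 0.752 and 0.773 in Ly6C+ libraries, and 25.6, 40.8 and 26.2 were its Ly6C− values (limma adjusted p = 4.16e-05). Krt19 had 4.88, 3.01 and 3.86 in Ly6C+ libraries, and 57.1, 24.7 and 53.8 were its Ly6C− values (limma adjusted p = 1.74e-04). Krt14 and Krt19 reached the minimum mean of 5 for testing only through their Ly6C− values. Within the Ly6C− group the sum over the list was highest in replicate 1 and lowest in replicate 3, as Csf3 was. So were the tested markers Krt18 (183.1, 97.8 and 21.0), Krt8 (81.7, 34.0 and 6.555) and Spint2 (14.8, 5.955 and 2.62). Cldn4, Cldn7 and Cdh1 had that order at low values. Krt14 and Krt19, the other tested markers, and Krt5 (3.94, 15.3 and 10.5) had other orders. Grhl2 was at 0 in all 6 libraries and Esrp1 in the Ly6C− group, and Epcam and Cdh1 did not exceed 2.95 and 1.97. The part of tumour cell RNA in the Csf3 values was not tested. Csf3 lies on chromosome 11 (98701263 to 98703629, plus strand) and overlaps no other annotated gene.

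Csf2rb, the common beta chain gene, had 31.1, 67.7 and 27.0 in Ly6C+ libraries, against 9.84, 10.2 and 3.93 in Ly6C− libraries. Ly6C+ replicate 2 was more than double the other Ly6C+ values, yet the lowest Ly6C+ value was 2.65-fold the highest Ly6C− value. The means were 41.9 ± 22.4 and 7.99 ± 3.52, a ratio of 5.25 (log2 fold change 2.23, SE 0.43), with a range of 3.64 to 6.18 when 1 library was left out, the lowest being without Ly6C+ replicate 2. Csf2rb2, its neighbour on chromosome 15, had 23.2, 23.3 and 11.6 in Ly6C+ libraries, against 1.97, 1.70 and 2.62 in Ly6C− libraries. Here Ly6C+ replicate 3 was the low one, and each Ly6C− library held 2 reads. The means were 19.4 ± 6.73 and 2.10 ± 0.474, a ratio of 9.23 (log2 fold change 2.66, SE 0.43), on 84 and 6 reads, of which the 6 have an exact 95% Poisson interval of 2.20 to 13.1. Csf2rb2 reached the minimum mean of 5 only through its Ly6C+ values.

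The 2 beta chain genes are close copies that lie head to head, Csf2rb at 78325752 to 78353847 on the plus strand and Csf2rb2 at 78282507 to 78305721 on the minus strand. Their longest coding transcripts shared 90.9% of aligned bases, and 18.4% of all 50-base windows of Csf2rb occurred unchanged in Csf2rb2. In the last 500 bases, where 3′ end reads fall, identity was 83.1%, the longest identical run was 36 bases and 0% of 50-base windows were shared. The read length is not given in the sources used here, so how well reads were parted between them remains uncertain. Taken as a pair, they summed to 54.3, 91.0 and 38.6 in Ly6C+ libraries, against 11.8, 11.9 and 6.56 in Ly6C− libraries, a ratio of 6.07. Csf2rb made up 57.3%, 74.4% and 70.0% of the pair's reads in Ly6C+ libraries and 83.3%, 85.7% and 60.0% in Ly6C− libraries, with overlap. Over the pooled reads its share was 67.7% of 260 in Ly6C+ pCAFs (95% Wilson interval 61.8% to 73.1%). In Ly6C− pCAFs it was 80.6% of 31 (63.7% to 90.8%). These intervals cover counting error only and not the spread between libraries, so they do not compare the groups.

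Both beta chains are best known from granulocytes and other myeloid cells, so granulocyte and leukocyte markers are given beside them. Granulocyte markers, 11 of 12 measured, summed to 44.0 to 969.8 in Ly6C+ and 11.1 to 32.5 in Ly6C− libraries. In the Ly6C− libraries S100a8, S100a9, Retnlg, Ly6g, Cxcr2 and Ngp were at 0. Most of the sum was Il1r2 in Ly6C+ replicates 2 and 3 (37.6 and 34.8) and in Ly6C− replicate 1 (23.6). Of 7 granulocyte markers tested, Il1r2 alone passed (limma adjusted p = 0.0120). Mpo went the other way, with means of 2.59 in Ly6C+ and 4.54 in Ly6C− libraries. In Ly6C+ replicate 1, where S100a9 reached 478.2, Csf2rb stood at 31.1 and Csf2rb2 at 23.2, and in replicate 2, where S100a9 was 4.51, they stood at 67.7 and 23.3. Leaving Ly6C+ replicate 1 out gave ratios of 5.92 for Csf2rb, 8.32 for Csf2rb2, 5.93 for Csf3 and 5.07 for Csf2, against 5.25, 9.23, 4.97 and 4.43 with all libraries. The part of granulocyte RNA in the values of any library was not tested. Leukocyte markers, 5 of 9 measured, summed to 125.5 to 225.1 in Ly6C+ and 17.0 to 49.2 in Ly6C− libraries. Outside Ly6C− replicate 1, most of this was the single gene Cd3e, which encodes the CD3 epsilon subunit. Its Ly6C+ values were 164.7, 88.7 and 120.5, with 19.7, 18.7 and 10.5 for Ly6C−. Of 3 leukocyte markers tested, Cd3e alone passed (limma adjusted p = 6.445e-05), and Cd3d was not analysed here. Ptprc had 4.88, 1.503 and 1.55 normalised counts in Ly6C+ and 0 in all Ly6C− libraries. The part of leukocyte RNA in the beta chain values was not tested.

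**Figure D2:**
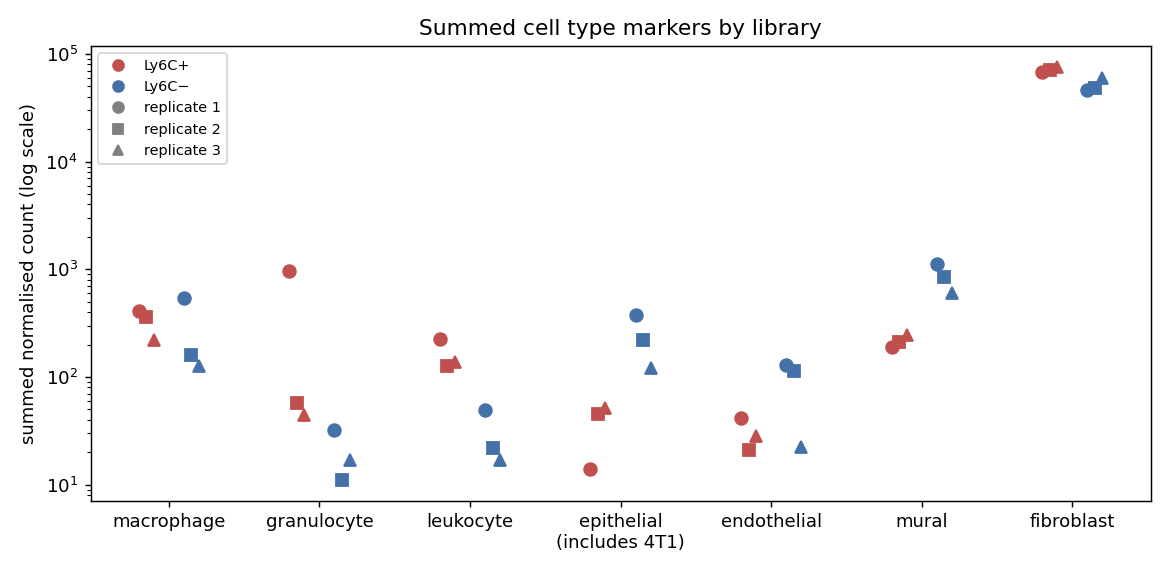
Summed normalised counts (vertical log axis) of 7 cell type marker lists in each Ly6C+ (left of each pair) and Ly6C− (right) library, with symbols for the replicate number. Granulocyte markers stand out in Ly6C+ replicate 1 (969.8), and epithelial markers are higher in every Ly6C− library (121.9 to 375.0) than in any Ly6C+ library (14.0 to 51.0).

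**Figure D3:**
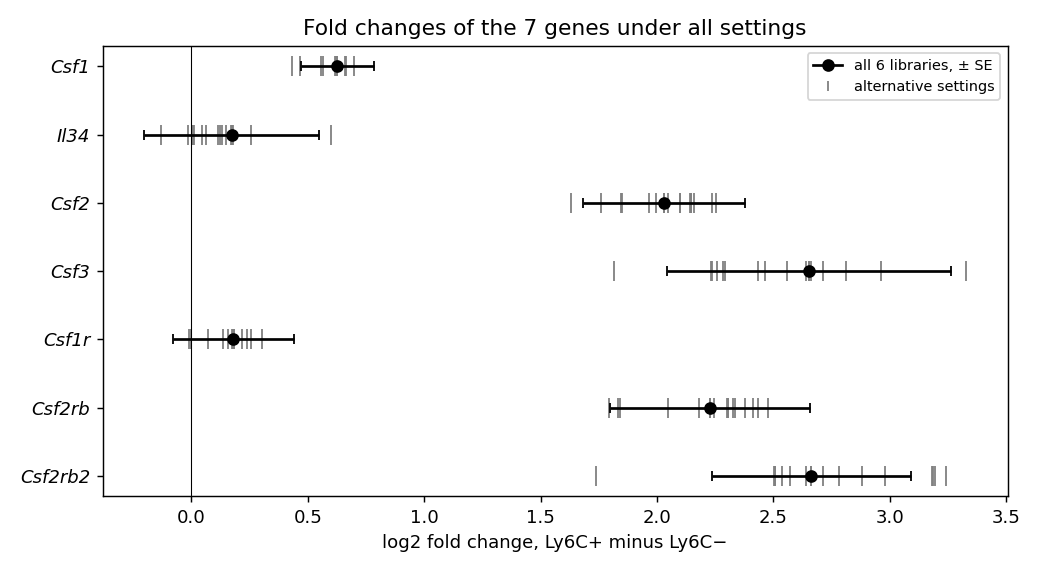
Log2 fold changes (horizontal axis, Ly6C+ minus Ly6C−) of the 7 genes with all 6 libraries (points, bars of 1 SE) and under each alternative setting (ticks). Csf2, Csf3, Csf2rb and Csf2rb2 lie at 1.63 or above in all settings run, Csf1 lies between 0.43 and 0.70, and Il34 and Csf1r reach 0 or below.

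The genes around the members were read from lists by role, drawn up with earlier results of these data known, and tested with limma across all 9646 tested genes, of which 17.1% passed at an adjusted p under 0.05 (9.41% higher and 7.66% lower in Ly6C+ pCAFs). With libraries scaled to their totals, 37.5% instead of 55.1% of the calls were higher. The lists hold few genes, and their counts and medians (log2 fold change of all tested genes −0.001) are a description.

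Of the other receptors and ligands, 4 of 9 listed genes were measured and Csf3r, Il3, Il5, Il5ra and Ptprz1 were not analysed here. Il3ra, the IL-3 receptor alpha chain that pairs with both beta chains, rose. It had 305.6, 216.5 and 152.2 in Ly6C+ against 132.9, 71.5 and 104.9 in Ly6C− libraries (ratio 2.18, log2 fold change 1.10, SE 0.28; limma adjusted p = 0.0198). Its call ended without Ly6C+ replicate 1 or 2 or Ly6C− replicate 2 (limma adjusted p = 0.0952, 0.0619 and 0.0958). Csf2ra, the GM-CSF-binding alpha chain, had 23.2, 18.8 and 17.8 in Ly6C+ against 14.8, 11.9 and 17.0 in Ly6C− libraries. These groups did not overlap but were close, and the gene did not pass (log2 fold change 0.43, SE 0.29; limma adjusted p = 0.370).

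Sdc1, which encodes the proteoglycan syndecan-1, described as an IL-34 binding partner, fell to 314.6 ± 24.3 normalised counts in Ly6C+ pCAFs, and 1284 ± 120 were found in Ly6C− pCAFs (4.08-fold higher in Ly6C−; log2 fold change −2.03, SE 0.16; limma adjusted p = 7.68e-06). Trem2, a lipid-sensing receptor gene of macrophages, had 1.83, 5.26 and 0.773 in Ly6C+ against 38.4, 34.9 and 7.87 in Ly6C− libraries (log2 fold change −2.88, SE 0.64; limma adjusted p = 0.00954), on 11 and 86 reads. The Trem2 call ended without Ly6C− replicate 2 (limma adjusted p = 0.0580), and Trem2 reached the minimum mean of 5 only through its Ly6C− values. The macrophage marker sums given above overlapped between the groups, while the macrophage marker Lyz2 was higher in Ly6C+.

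Among 18 genes of JAK-STAT signalling and its feedback, 4 rose, 2 fell and 12 did not pass (33.3% called, median log2 fold change 0.20), or 2 and 2 with libraries scaled to their totals. Socs3, a feedback inhibitor of the G-CSF and IL-6 receptors, had 1606, 1725 and 1868 in Ly6C+ against 661.4, 596.3 and 634.5 in Ly6C− libraries (ratio 2.75, log2 fold change 1.46, SE 0.15; limma adjusted p = 5.78e-05). Pim1, a kinase gene that STAT5 and STAT3 induce, had 374.8 ± 52.9 in Ly6C+ and 173.5 ± 34.4 in Ly6C− pCAFs (ratio 2.16; limma adjusted p = 0.00204). These calls held with any 1 library left out.

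Other calls of that list were weaker. Jak1 (ratio 1.86; limma adjusted p = 0.0252) and Stat5b (1.65; 0.0384), a STAT of the beta chain receptors, rose, and Socs2 (0.580; 0.0446), another feedback inhibitor, fell. Jak1 did not pass without Ly6C+ replicate 1 or 3 or Ly6C− replicate 1 or 2 (limma adjusted p = 0.0603 to 0.116), and Stat5b and Socs2 without any 1 Ly6C+ library or Ly6C− replicate 2 or 3 (0.0518 to 0.169 and 0.0537 to 0.169). Jak2, the kinase that binds the common beta chain, had 151.9, 177.4 and 169.2 in Ly6C+ against 188.0, 150.6 and 159.9 in Ly6C− libraries, with overlap.

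**Figure D4:**
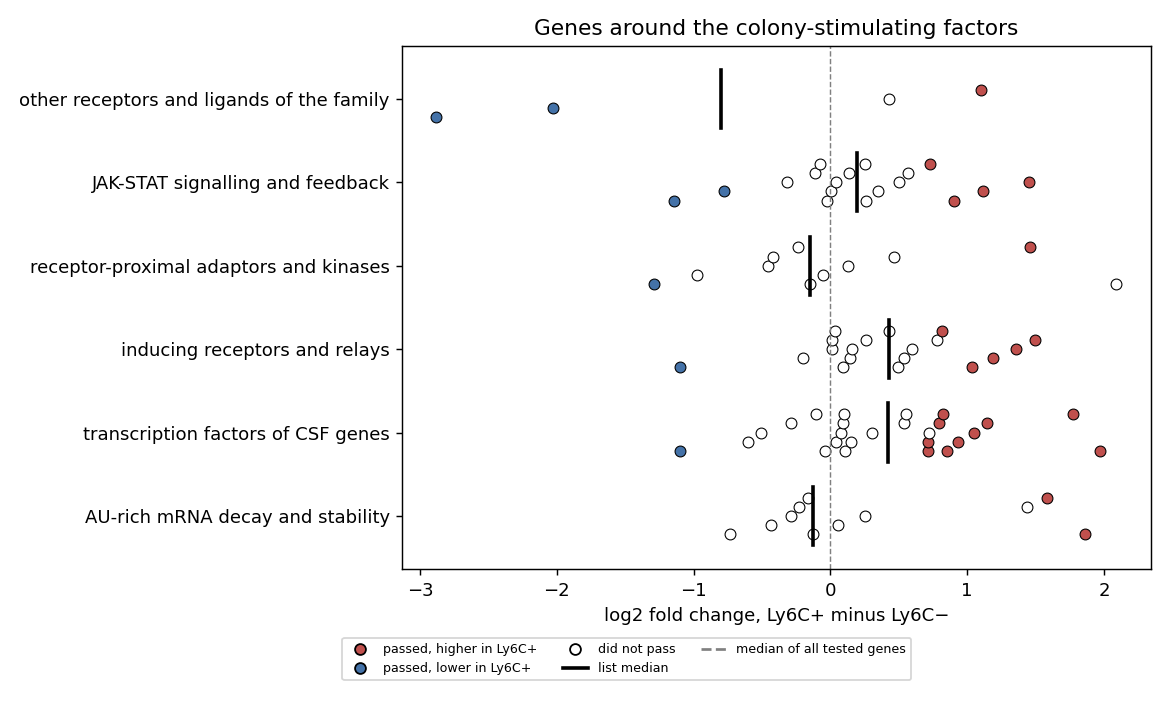
Log2 fold changes (horizontal axis, Ly6C+ minus Ly6C−) of the tested genes in 6 lists, with filled points for genes past limma's adjusted p of 0.05, open points for the others, black bars for list medians and a dashed line for the median of all tested genes. The lists of inducing receptors (5 higher, 1 lower) and transcription factors (10 higher, 1 lower) have medians of 0.43 and 0.42.

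Of 23 adaptors and kinases that bind these receptors, 11 passed the filter on low values, 1 rose, 1 fell and 9 did not pass (18.2% called, near the 17.1% of all genes), or 1 and 3 with libraries scaled to their totals. The Src family kinase gene Fyn rose (44.8 ± 4.82 in Ly6C+ and 15.7 ± 2.82 in Ly6C− pCAFs; limma adjusted p = 0.00190) and the docking protein gene Dok1 fell (144.3 ± 24.7 in Ly6C+ and 353.9 ± 60.2 in Ly6C− pCAFs; limma adjusted p = 8.00e-04). Of the myeloid members, Tyrobp had 20.1, 18.8 and 5.41 in Ly6C+ against 11.8, 1.70 and 0 in Ly6C− libraries, and the gene did not pass.

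Receptors and relays that induce colony-stimulating factors, above all those of IL-1, IL-17, TNF and Toll-like receptors, held 19 tested genes of 23, of which 5 rose, 1 fell and 13 did not pass (31.6% called, median 0.43). Il17ra, the shared IL-17 receptor chain, had 383.6, 327.0 and 369.3 in Ly6C+ against 128.9, 113.1 and 139.0 in Ly6C− libraries (ratio 2.83, log2 fold change 1.497, SE 0.17; limma adjusted p = 9.53e-05). Il1r1, the IL-1 receptor, had 483.9 ± 71.2 in Ly6C+ and 239.0 ± 66.3 in Ly6C− pCAFs (ratio 2.02; limma adjusted p = 0.00560). The adaptor gene Myd88 (ratio 1.77), the NF-kB inhibitor gene Nfkbia (2.28) and Nfkbiz (2.48), an IkB protein that acts with NF-kB on IL-17 and IL-1 target genes, rose as well (limma adjusted p = 0.00478, 6.55e-04 and 0.00382). All 5 passed with any 1 library left out. Irak2, a kinase of the same relay, fell to 18.1 ± 4.27 in Ly6C+, against 40.3 ± 11.2 in Ly6C− pCAFs (limma adjusted p = 0.0213), and did not pass without Ly6C+ replicate 1 or 3 or Ly6C− replicate 1 (0.0904, 0.0543 and 0.0728).

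Of 28 transcription factor genes known to act on colony-stimulating factor genes or their receptors, 26 were tested, 10 rose, 1 fell and 15 did not pass (42.3% called, median 0.42), or 7 and 2 with libraries scaled to their totals and 6 and 1 after quantile normalization. Fos, Jun, Junb and Jund, subunits of AP-1, stood at ratios of 2.07, 1.64, 1.72 and 2.25 (limma adjusted p = 0.00184, 0.00896, 0.00897 and 0.00210). Of these, Fos, Jun and Junb did not pass after quantile normalization (limma adjusted p = 0.0602, 0.431 and 0.0954), and Jun and Junb did not pass without Ly6C− replicate 2 (0.0577 and 0.0562). Nfatc2, an NFAT factor gene, had 18.3, 30.1 and 46.4 in Ly6C+ against 7.87, 6.81 and 9.18 in Ly6C− libraries (log2 fold change 1.78, SE 0.36; limma adjusted p = 0.00570), with no overlap.

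Runx2 fell to 45.1, 46.6 and 45.6 in Ly6C+, against 98.4, 100.4 and 98.3 in Ly6C− libraries, with very little spread (log2 fold change −1.10, SE 0.18; limma adjusted p = 0.00146). Runx1, a factor with known sites at the Csf1r and Csf2 genes, had 159.2, 221.7 and 221.8 in Ly6C+ against 261.8, 273.9 and 314.6 in Ly6C− libraries. These groups did not overlap, yet the gene did not pass (log2 fold change −0.51, SE 0.18, and limma adjusted p = 0.0901). It passed with libraries scaled to their totals (0.0203), and its adjusted p over the 18 alternatives reached 0.274. The remaining 5 genes that rose, named after their values were seen, were Nfkb1, Cebpa, Cebpd, Nfatc1 and Egr1 (ratios of 1.87, 1.94, 5.17, 1.66 and 1.75). Their limma adjusted p-values were 0.0252, 0.0107, 0.0369, 0.0189 and 0.0233, and each lost its call in at least 1 setting. Nfkb1 did not pass without Ly6C+ replicate 2 or 3 or Ly6C− replicate 2 (limma adjusted p = 0.0614 to 0.105), and Egr1 without the same libraries (0.0513 to 0.121) or after quantile normalization (0.375). Cebpa did not pass without Ly6C+ replicate 1 (0.0537), and Nfatc1 without Ly6C+ replicate 2 or Ly6C− replicate 2 (0.101 and 0.0768). Cebpd, on 41 and 5 reads, did not pass without any 1 Ly6C+ library or Ly6C− replicate 1 or 2 (0.0506 to 0.182). Cebpd reached the minimum mean of 5 only through its Ly6C+ values (means of 9.94 in Ly6C+ and 1.92 in Ly6C− libraries).

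The proteins that govern AU-rich messages such as those printed for Csf2 and Csf3 had 11 tested genes of 12. Of these, 2 rose, none fell and 9 did not pass (18.2% called, near the 17.1% of all genes, median −0.12). Zfp36, which encodes TTP, a factor that brings Csf2 mRNA to decay, had 4920, 4711 and 3792 in Ly6C+ against 1891, 1258 and 1377 in Ly6C− libraries (ratio 2.97, log2 fold change 1.58, SE 0.20; limma adjusted p = 2.19e-04). Its relative Zfp36l1 had 708.1, 773.5 and 613.5 in Ly6C+ against 137.8, 197.4 and 253.0 in Ly6C− libraries (ratio 3.56, log2 fold change 1.86, SE 0.22; limma adjusted p = 1.49e-04). Both calls held with any 1 library left out. Zfp36, Zfp36l1, Csf2 and Csf3 were each higher in every Ly6C+ library than in any Ly6C− library.

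Genes with the most similar profile were found for the 5 members with a mean of at least 20 in both groups together and the same minimum for the 6703 candidate genes, by the root-mean-square difference of centred log2(value + 1) over the 6 libraries. For Csf1 these were Rhob, Map1lc3b and Ski, at 0.056, 0.059 and 0.065, where the median candidate differed by 0.45. Rhob, for example, had 748.4, 684.8 and 613.5 in Ly6C+ against 491.1, 439.0 and 494.3 in Ly6C− libraries. For Csf2 they were Epdr1, Adamts1 and the chemokine gene Cxcl1 (0.19, 0.22 and 0.23, median 1.12), and Cxcl1 had 9622, 9845 and 10570 in Ly6C+ against 1977, 2484 and 3169 in Ly6C− libraries. For Csf3, the least even gene in Ly6C− pCAFs, the closest were farther off, Sema4a, C1qtnf7 and Gprc5b (0.49, 0.62 and 0.63, median 1.67). For Csf2rb they were Lmcd1, Smoc2 and Gdf15 (0.34, 0.34 and 0.38, median 1.28), which share its high value in Ly6C+ replicate 2. For Csf1r, whose profile is nearly flat, they were Psme3, Sppl3 and Eps15l1 (0.068, 0.079 and 0.087, median 0.40). The 6 libraries share their 2 groups and their depths, so the likeness is a description.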

How the data were processed

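RNA was measured in 6 libraries of sorted pCAFs. The deposited table holds signal values: the authors' count per gene over a single size factor for each library, as the values themselves show. Tools named in the submitters' processing notes are HTSeq, STAR 2.4.2a and bcl2fastq, with build mm10. The annotation, strand setting, molecular tags and gene filter are not given in the sources used here. All values of a library (100% within 0.001) were whole multiples of 1 step, so whole reads were recovered; they served for read numbers, edgeR 4.0.16 (1721 genes called) and DESeq2 1.42.0.

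Values were taken to log2 after adding 1, genes with a mean of at least 5 (9646 of 12235, 99.6% of reads) were tested with limma 3.58.1 (R 4.3.3, mean-variance trend, no block), and p-values were Benjamini-Hochberg adjusted over all of them. A gene can reach this mean of 5 through 1 group alone, as Csf2rb2, Cebpd, Trem2, Krt14, Krt19, Myh11, Mcam, Egfl7 and Tek did, among others. The pipeline was tested on simulated data. Groups were taken from the labels. These do not say whether the 3 repetitions are separate animals, so p-values measure only the spread between these samples. The 7 genes and the lists were chosen with earlier results of these data known. Named are the 7 genes, in each list up to 6 called genes by smallest p, Csf2ra, Csf3r, Il3ra and Runx1, and per member the 3 most similar genes. Jak2, Tyrobp, the marker genes, the overlapping gene Hmgxb3 and the remaining transcription factor genes that rose were named outside this rule. The values of 1 called gene are not reported here. Alternatives changed the pseudocount (0.5, 5), the filter (none, or a mean of 20), the scaling (library totals, median of ratios, quantiles) or the test: limma with the replicate number as a block, edgeR (TMM or RLE factors), DESeq2, and each library left out. Coordinates and transcripts are from GENCODE M21, promoters from RefSeq. Python 3.11.15, scipy 1.17.1, Biopython 1.88 and matplotlib 3.10.9 were used.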

Additional observations from a re-analysis of the deposited data

How the results depend on the processing

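Of 124 log2 fold changes of the 7 genes under alternatives, 117 moved by less than 1 SD between replicates. Those that moved further were of Csf1 and Csf2rb2. Csf1 (0.63) stood at 0.43 with libraries scaled to their totals and 0.47 after quantile normalization. Csf2rb2 (2.66), with 6 Ly6C− reads, stood at 1.74 with a pseudocount of 5. It stood at 3.18, 3.19, 3.19 and 3.24 in edgeR (TMM, RLE, and TMM with the replicate block) and DESeq2. These were run on whole reads and not on log2(value + 1), and the cause of the shift was not tested. Il34 changed sign without Ly6C− replicate 3 (−0.13), and Il34 and Csf1r did with library totals (−0.01 each). Il34 and Csf2rb2 fall below a mean of 20 and have no value there.

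Calls of all genes (1647) ran from 1121 to 1728 with 1 library left out. JAK-STAT calls (6) numbered 2 with no filter and 2 to 4 with 1 library left out, those of adaptors and kinases (2) numbered 4 with library totals, those of transcription factors (11) numbered 7 after quantile normalization and 5 to 11 with 1 library left out, and those of other receptors and ligands (3) 1 to 3. The cause was not tested. The labels do not say whether libraries with the same replicate number share an origin. Same-numbered libraries correlated in their deviations from the group means at 0.13, 0.052 and 0.17, each being the best match of its library. The replicate block raised the calls of all genes to 2088 (limma). Whether the numbers mark a pairing was not tested, and the main fit has no block. Runx1 passed with the replicate block in limma and in edgeR, and among the other alternatives run only with library totals. The fewest reads per group were those of Csf2rb2, Csf2, Csf2rb, Il34 and Csf3 in Ly6C− pCAFs (6 to 65).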
